A study of Mus musculus with 42 samples.

Results

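The genes of the unfolded protein response and the integrated stress response examined here are *Hspa5*, *Hsp90b1*, *Herpud1*, *Xbp1*, *Atf4*, *Ddit3*, *Trib3*, *Asns*, *Chac1* and *Sesn2*. They were picked by their symbols as known parts of these pathways, with earlier results of these data known. They are 10 of the 25700 genes in the table. Their expression was followed in the retina of 42 C57BL/6J mice, 1 retina per mouse, by RNA sequencing. The measure is FPKM, the number of sequenced fragments of a gene scaled to transcript length and library size. The mice formed 7 groups of 6. Normoxia mice breathed normal air for 11 weeks from an age of 9.5 weeks. Mice of 07-06h-ZH spent 6 h at 7% oxygen from an age of 10 weeks. Mice of 14-06h-ZH and 14-48h-ZH spent 6 h or 48 h at 14% oxygen from an age of 9 to 11 weeks, and those of 14-11w-ZH spent 11 weeks there from an age of 9.5 weeks. The ZH groups were kept in Zürich in chambers at normal pressure at 400 m. Mice of 14-48h-JFJ and 14-07w-JFJ stayed at a mountain station at 3450 m (JFJ) for 48 h or 7 weeks from an age of 9 weeks, where low air pressure lowers the available oxygen to about that of 14%.

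The unfolded protein response watches protein folding in the endoplasmic reticulum (ER). When unfolded proteins pile up, the sensors ATF6, IRE1 and PERK raise ER chaperones and the degradation of misfolded proteins, IRE1 by splicing the *Xbp1* mRNA and ATF6 by entering the nucleus after cleavage. PERK belongs also to the integrated stress response, in which kinases that sense ER stress, amino acid lack, haem lack or double-stranded RNA phosphorylate the translation factor eIF2. General translation then drops while the *Atf4* mRNA is translated better, and ATF4 switches on genes of amino acid supply and, with CHOP (encoded by *Ddit3*), genes of redox control and cell death. Much of this control acts on splicing, translation and cleavage, which gene-level mRNA values do not show. Photoreceptors are known for a heavy load of membrane protein folding, since their outer segments are renewed throughout life.

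The DNA before the RefSeq start of 5 of the 10 genes holds the letters of an element known from these pathways, and it is shown here to tell apart the genes with an ER stress element, with an element bound by ATF4, or with both. The 250 bases before the start of each gene in RefSeq (GRCm38.p6) were searched on both strands, and all 10 genes had an entry. The searched motifs were the ER stress element ERSE (CCAAT, 9 bases of any kind, CCACG), ERSE-II (ATTGG, 1 base of any kind, CCACG), the XBP1 element UPRE (TGACGTGG) and the C/EBP-ATF element bound by ATF4 (TGATGNAAN). ERSE is in 0.113% of 32851 such windows, ERSE-II in 0.0304%, UPRE in 0.563% and the C/EBP-ATF element in 3.44%. *Hspa5* holds 1 ERSE, *Hsp90b1* holds 2, and *Herpud1* holds 1 ERSE-II and 1 C/EBP-ATF element. *Asns* and *Chac1* hold 1 C/EBP-ATF element each. No match was found in these windows of *Xbp1*, *Atf4*, *Ddit3*, *Trib3* and *Sesn2*, which says only that these letters are not there. The stretches shown are chr2:34772019-34772048 (*Hspa5*, plus strand), chr10:86705510-86705694 (*Hsp90b1*, minus strand), chr8:94386179-94386428 (*Herpud1*, plus strand), chr6:7693214-7693243 (*Asns*, minus strand) and chr2:119350992-119351228 (*Chac1*, plus strand), 5′ to 3′, with the motifs in capitals. In *Chac1*, at the C/EBP-ATF element of *Herpud1* and at the second ERSE of *Hsp90b1* the motif reads on the opposite strand, so that the capitals are its reverse complement. For *Hspa5* and *Asns* 30 bases around the motif are given, since the motif there lies inside the gene of the deposited table, which starts further upstream than in RefSeq. For *Hsp90b1* and *Chac1* that gene also starts further upstream, and the stretch ends before it. A match is a description of the sequence and no evidence of binding.
Hspa5: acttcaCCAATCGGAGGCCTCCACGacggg
Hsp90b1: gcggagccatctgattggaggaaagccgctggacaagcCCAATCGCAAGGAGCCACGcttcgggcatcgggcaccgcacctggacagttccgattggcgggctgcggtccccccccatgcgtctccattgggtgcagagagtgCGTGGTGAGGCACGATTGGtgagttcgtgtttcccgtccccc
Herpud1: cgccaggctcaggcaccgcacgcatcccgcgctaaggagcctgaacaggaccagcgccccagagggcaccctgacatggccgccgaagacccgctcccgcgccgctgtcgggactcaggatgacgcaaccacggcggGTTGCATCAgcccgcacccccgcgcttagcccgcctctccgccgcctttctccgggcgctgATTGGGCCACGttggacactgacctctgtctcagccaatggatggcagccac
Asns: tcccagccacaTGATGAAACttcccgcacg
Chac1: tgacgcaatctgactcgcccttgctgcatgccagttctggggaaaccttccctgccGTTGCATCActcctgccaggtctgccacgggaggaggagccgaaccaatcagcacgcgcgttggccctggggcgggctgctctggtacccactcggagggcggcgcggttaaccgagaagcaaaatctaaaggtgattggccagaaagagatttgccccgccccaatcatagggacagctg

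The pentamer ACGTG, the core of the element bound by hypoxia-inducible factors, is in 16.6% of all windows. It occurs once each in *Hspa5* (155 to 151 bases before the start), *Asns* (110 to 106 bases before it) and *Herpud1* (45 to 41 bases before it). In *Herpud1* it overlaps the ERSE-II.

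The 36 libraries whose read numbers could be worked out held 13986520 to 33595709 reads in genes, and the 8 rod marker genes summed to between 36605 and 54680 FPKM in every retina, which fits the tissue label. Lens markers reached 1000 FPKM or more in 13 of the 42 libraries, with none in 07-06h-ZH and 1 to 3 in each other group. The sample codes put Normoxia and 14-11w-ZH in 1 series and 14-06h-ZH and 14-48h-ZH in another, and each other group has a series of its own. Series and hypoxia can be told apart only for 14-11w-ZH against Normoxia and 14-48h-ZH against 14-06h-ZH. The ages given above are those at the start. Normoxia mice were then kept for 11 weeks, those of 14-07w-JFJ for 7 weeks and the other short groups for 6 h or 48 h. Age at the end and hypoxia therefore cannot be told apart where 14-07w-JFJ or a 6 h or 48 h group is compared with Normoxia. Y-linked genes were expressed in 6 of 6 mice of Normoxia and 14-11w-ZH and in 3 of 6 mice of every other group. By the study's account the station mice also had a transport and another light cycle, and their retinas were isolated without a microscope.

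All 10 genes were detected in every retina, from 1.75 FPKM (*Chac1*) to 444 FPKM (*Hsp90b1*). *Hsp90b1*, with a mean of 285 FPKM over the 42 mice, ranked 209th among all genes and *Chac1*, with a mean of 3.76 FPKM, ranked 11216th. All passed the filter on low values in each comparison. The groups were compared with limma on log2(FPKM + 0.1), and a gene is said to have risen or fallen where the p-value adjusted over all genes was at most 0.05. Fewer cells of a type and less RNA per cell cannot be told apart in whole retina.

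Changes of these genes were small. Over 100 values (10 genes in 10 comparisons) 28 passed the test, 12 higher and 16 lower, and 0 also reached an absolute log2 fold change of 1, the threshold of the study for DE genes. Over all genes, the share past both thresholds against Normoxia was 4.2% for 07-06h-ZH, 0.976% for 14-06h-ZH and 0.822% for 14-48h-ZH. In 14-11w-ZH the share was 0.0351%, at the mountain station 0.246% after 48 h and 0.277% after 7 weeks. Between hypoxic groups it was 3.95% (07-06h-ZH against 14-06h-ZH), 0.0641% (14-48h-ZH against 14-06h-ZH), 1.32% (14-48h-JFJ against 14-48h-ZH) and 0.235% (14-07w-JFJ against 14-11w-ZH). The largest difference was 0.89 (log2), for *Chac1* between 07-06h-ZH and 14-06h-ZH. Over the 13 alternatives described below it ranged from -1.01 to -0.70 and passed in each, so that it went beyond 1 under some processing. *Sesn2* was the only 1 of the 10 that passed in no comparison.

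Against normoxia, *Hspa5*, *Hsp90b1*, *Xbp1* and *Atf4* were lower and *Trib3* was higher in 07-06h-ZH. These 5 of 10 genes passed where 42% of all 16962 genes tested did (18% higher, 24% lower), so the count is close to the share over all genes. With edgeR on the recovered reads 2 of the 10 passed, and *Hsp90b1*, *Atf4* and *Trib3* were not among them. That fit held fewer mice of both groups, so the test and the number of mice cannot be told apart. In 14-06h-ZH 5 passed, 2 higher (*Asns*, *Chac1*) and 3 lower (*Hspa5*, *Xbp1*, *Atf4*), with 34.3% of 17108 genes passing (9.54% higher, 24.8% lower). In 14-48h-ZH *Atf4* passed alone, lower, with 36.2% of all genes passing (9.48% higher, 26.7% lower). In 14-11w-ZH 3 passed, all lower (*Hspa5*, *Hsp90b1*, *Xbp1*), with 3.96% of all genes passing (2.02% higher, 1.94% lower). In 14-48h-JFJ 0 of 10 passed in limma and 0 in edgeR on the recovered reads, 2 had an unadjusted p under 0.05 (*Atf4* and *Asns*), and 5.33% of all genes passed (2.67% higher, 2.65% lower). In 14-07w-JFJ 3 passed, *Asns* and *Herpud1* higher and *Hsp90b1* lower, with 2.04% of all genes passing (1.47% higher, 0.577% lower). The numbers of genes called higher and lower among all genes depend on the scaling: with median-of-ratios scaling in place of FPKM as deposited, 2680 rather than 1632 genes were higher and 2975 rather than 4240 lower in 14-06h-ZH, and 2863 rather than 1615 higher and 2934 rather than 4553 lower in 14-48h-ZH. In the same way 263 rather than 345 were higher and 398 rather than 331 lower in 14-11w-ZH, 418 rather than 457 higher and 700 rather than 454 lower in 14-48h-JFJ, and 177 rather than 249 higher and 162 rather than 98 lower in 14-07w-JFJ.

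**Figure D1:**
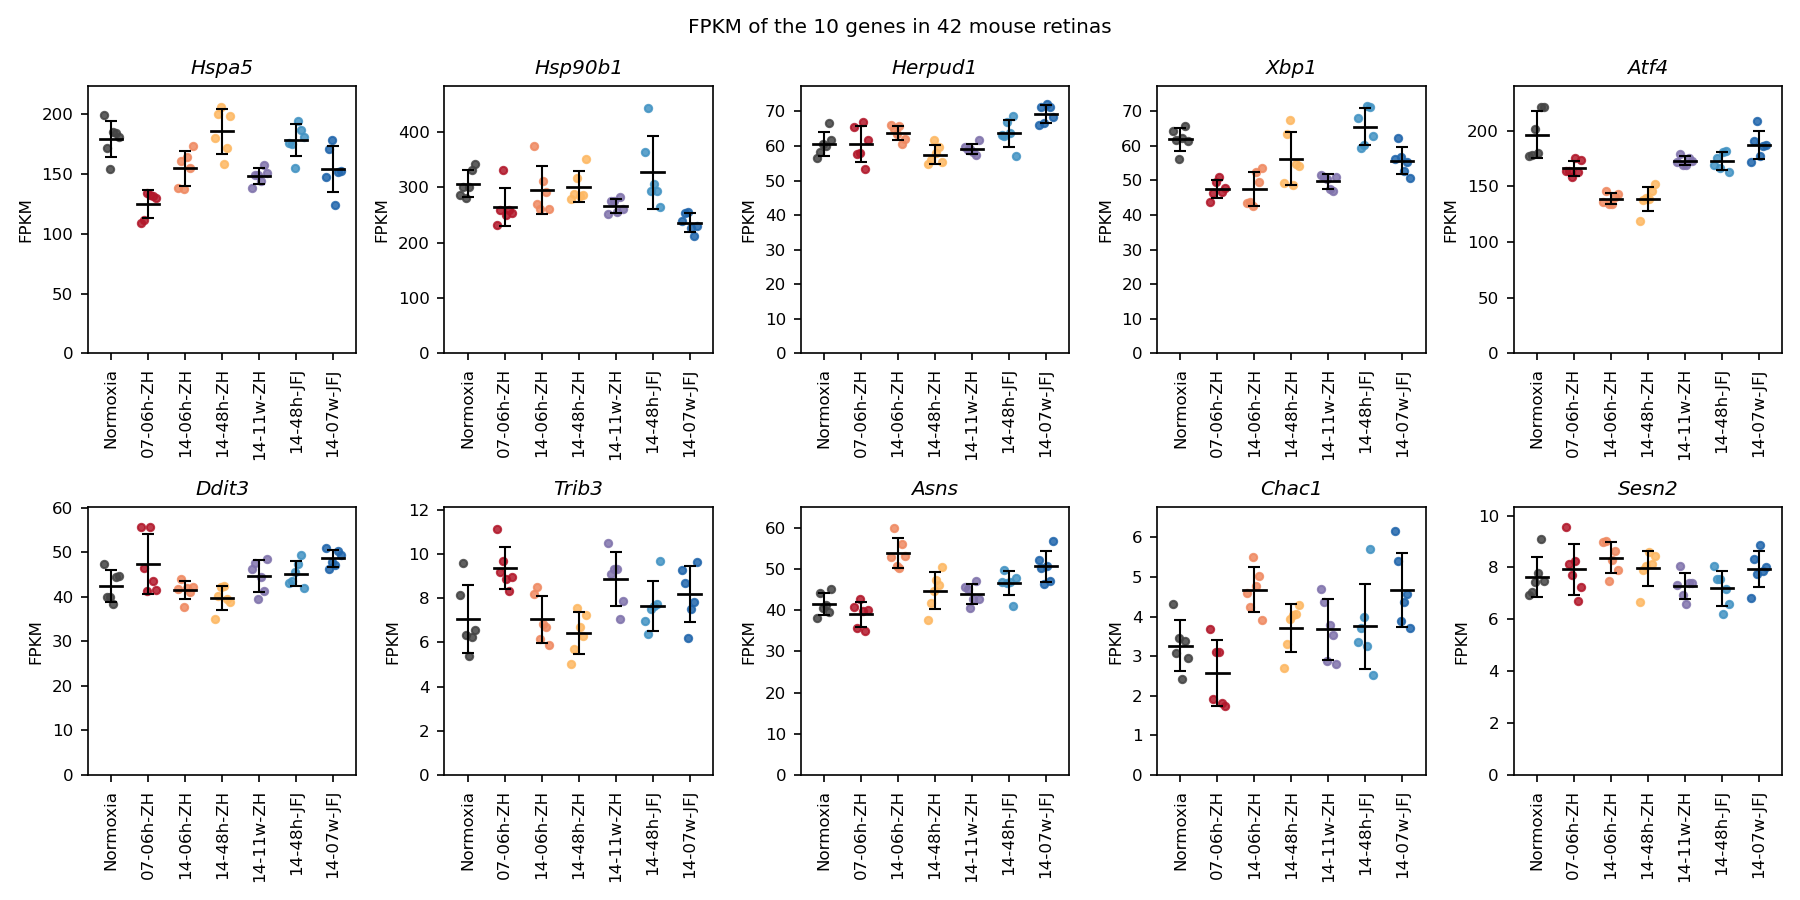
FPKM (vertical axis, from 0) of each of the 10 genes in the 7 groups (horizontal axis). Points are the 6 mice of a group, the long bar is the mean and the whiskers are ± 1 SD. *Hspa5* in 07-06h-ZH (108.6 to 134.4) lies below every Normoxia mouse (153.9 to 199.3), and *Asns* in 14-06h-ZH (50.1 to 60.0) lies above every Normoxia mouse (38.1 to 45.2).

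*Hspa5* (ENSMUSG00000026864, chr2:34771970-34777547, plus strand, GRCm38 as for all genes here) encodes BiP, the main ER chaperone of the HSP70 family and the usual readout of ER stress. In Normoxia the lowest, median and highest mouse had 153.9, 182 and 199 FPKM. In 07-06h-ZH these were 108.6, 131 and 134 FPKM, and every mouse was below every Normoxia mouse. *Hspa5* fell there by 0.52 (log2, SE 0.07, adjusted p = 8.72e-06), which is a drop to 0.696 of normoxia. In 14-06h-ZH the 6 mice had 137 to 173 FPKM (median 158), 2 of them below every Normoxia mouse, and the fall was 0.21 (SE 0.07, adjusted p = 0.0204). That call is lost in 4 of 13 alternatives, namely median-of-ratios scaling (-0.14, adjusted p = 0.131), the deposited normalized counts (adjusted p = 0.114), the GC correction (adjusted p = 0.131) and without the lens-rich libraries (-0.19, adjusted p = 0.0814). In 14-48h-ZH *Hspa5* stood at 159 to 206 FPKM (median 189), overlapping normoxia, with a difference of 0.05 (95% interval -0.10 to 0.20). After 11 weeks (14-11w-ZH) it was at 138 to 157 FPKM (median 149), with 5 of 6 mice below every Normoxia mouse, and fell by 0.27 (SE 0.05, adjusted p = 0.0113). Without the lens-rich libraries this fall was 0.21 (adjusted p = 0.0768). At the mountain station the difference was -0.01 (95% interval -0.13 to 0.12) after 48 h and -0.22 (95% interval -0.39 to -0.05, adjusted p = 0.158) after 7 weeks.

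*Hsp90b1* (ENSMUSG00000020048, chr10:86690209-86705509, minus strand) encodes GRP94, the HSP90 chaperone of the ER. Its lowest levels were those of 14-07w-JFJ, with 212 to 256 FPKM (median 235) against 280 to 343 in Normoxia, and no overlap. It fell there by 0.38 (SE 0.06, adjusted p = 0.0028) and passed under all 13 alternatives. In 14-11w-ZH (251 to 283 FPKM) 5 of 6 mice were below every Normoxia mouse and the fall was 0.20 (SE 0.05, adjusted p = 0.0353). In 07-06h-ZH 5 of 6 mice (from 232 FPKM) were below every Normoxia mouse while 1 had 331 FPKM, and the fall was 0.22 (SE 0.07, adjusted p = 0.0236). The call in 07-06h-ZH was lost in 6 of 13 alternatives and that in 14-11w-ZH in 5 of 12, each time including edgeR on the recovered reads (adjusted p = 0.142 in 14-11w-ZH and 0.185 in 07-06h-ZH). In 14-48h-JFJ the spread was wide, from 265 to 444 FPKM, and the difference from normoxia was 0.08 (95% interval -0.17 to 0.32).

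*Herpud1* (ENSMUSG00000031770, chr8:94386438-94395377, plus strand) encodes a membrane protein of ER-associated degradation, the route by which misfolded proteins leave the ER for the proteasome. It varied little within groups, with 56.4 to 66.5 FPKM in Normoxia. In 14-07w-JFJ it stood at 66.1 to 72.0 FPKM (median 69.8), with 5 of 6 mice above every Normoxia mouse, and rose by 0.19 (SE 0.04, adjusted p = 0.0275), a call lost in 7 of 13 alternatives. In the other 5 hypoxic groups its difference from normoxia lay between -0.07 and 0.07 and did not pass. At 7 weeks *Herpud1* was thus higher and *Hsp90b1* lower than in normoxia.

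*Xbp1* (ENSMUSG00000020484, chr11:5520659-5525893, plus strand) encodes the transcription factor that IRE1 activates by splicing, and the values here sum spliced and unspliced mRNA. Normoxia mice had 56.1 to 65.8 FPKM (median 61.9). The 07-06h-ZH mice had 43.6 to 50.9 FPKM (median 47.3), all below normoxia, and *Xbp1* fell by 0.38 (SE 0.05, adjusted p = 8.26e-06). The 14-06h-ZH mice had 42.5 to 53.6 FPKM (median 46.5), again all below, and the fall was 0.39 (SE 0.06, adjusted p = 0.000135). In 14-48h-ZH values spread from 48.6 to 67.5 FPKM with a difference of -0.15 (95% interval -0.31 to 0.01). In 14-11w-ZH all 6 mice were below normoxia again (46.8 to 51.5 FPKM), and the fall of 0.32 (SE 0.04, adjusted p = 0.00267) passed in all 12 alternatives run there. This is the comparison within 1 series of codes, with 1.94% of all genes lower. In 14-48h-JFJ (59.3 to 71.4 FPKM) and 14-07w-JFJ (50.7 to 62.2 FPKM) the differences of 0.08 and -0.15 did not pass.

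*Atf4* (ENSMUSG00000042406, chr15:80255184-80257540, plus strand) encodes the transcription factor at the centre of the integrated stress response. Its mRNA was at 178 to 221 FPKM in Normoxia. It was lower in every mouse of 14-06h-ZH (134 to 146 FPKM) and 14-48h-ZH (119 to 152 FPKM), with falls of 0.49 (SE 0.06, adjusted p = 8.41e-06) and 0.50 (SE 0.07, adjusted p = 6.23e-05). In 07-06h-ZH it was at 158 to 175 FPKM, without overlap, and the fall was 0.24 (SE 0.06, adjusted p = 0.00388; 0.16 with adjusted p = 0.0626 by edgeR on the recovered reads). In the other groups the differences were -0.18 (14-11w-ZH, adjusted p = 0.0798), -0.18 (14-48h-JFJ, adjusted p = 0.0838) and -0.07 (14-07w-JFJ, adjusted p = 0.628). Both groups with the lowest *Atf4* share a series of codes, so that the series and the oxygen level cannot be told apart for them.

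*Ddit3* (ENSMUSG00000025408, chr10:127290774-127296288, plus strand) encodes CHOP, a transcription factor tied to cell death in lasting ER stress. Normoxia mice had 38.4 to 47.3 FPKM, and no hypoxic group passed the test against them. The highest single values were in 07-06h-ZH, where mice ranged from 41.4 to 55.7 FPKM (median 45.1) and the difference was 0.15 (95% interval -0.02 to 0.32, adjusted p = 0.149). The highest group median was in 14-07w-JFJ, with 46.2 to 51.1 FPKM (median 48.7), 4 of 6 mice above every Normoxia mouse and a difference of 0.20 (SE 0.05, adjusted p = 0.0602). *Ddit3* overlaps *Mars*, the gene of methionyl-tRNA synthetase on the opposite strand, by 68 bases. The sources used here do not say whether counting used the strand, so reads of that stretch cannot be assigned.

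The 4 target genes did not move as 1 block. *Trib3* (ENSMUSG00000032715, chr2:152337422-152344032, minus strand), whose product is a pseudokinase that feeds back on ATF4 and CHOP, had 5.41 to 9.60 FPKM in Normoxia (median 6.46) and 8.34 to 11.1 FPKM in 07-06h-ZH (median 9.10). The groups overlapped, with 2 of 6 hypoxic mice above every Normoxia mouse, and *Trib3* rose by 0.42 (SE 0.12, adjusted p = 0.00845), in all alternatives but edgeR on the recovered reads (0.39, adjusted p = 0.077). In 14-11w-ZH it had 7.08 to 10.5 FPKM, with a difference of 0.34 (adjusted p = 0.14). *Asns* (ENSMUSG00000029752, chr6:7675169-7693254, minus strand), the enzyme that makes asparagine and a standard ATF4 target, had 38.1 to 45.2 FPKM in Normoxia. In 14-06h-ZH all 6 mice were above this, with 50.1 to 60.0 FPKM (median 53.1), and *Asns* rose by 0.38 (SE 0.05, adjusted p = 3.66e-05). In 14-07w-JFJ all 6 mice were above it too, with 46.5 to 56.9 FPKM (median 50.6), and the rise was 0.29 (SE 0.05, adjusted p = 0.0142), a call lost in 4 of 13 alternatives, among them the fit with a sex term (0.26, adjusted p = 0.109). In 07-06h-ZH *Asns* was at 35.0 to 42.6 FPKM, with a difference of -0.09 (95% interval -0.21 to 0.03).

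*Chac1* (ENSMUSG00000027313, chr2:119351229-119354381, plus strand) encodes an enzyme that breaks down glutathione and is induced by ATF4. It was the lowest of the 10 and the most variable, with a coefficient of variation between 12.0% and 32.5% within groups. Normoxia mice had 2.41 to 4.33 FPKM and 14-06h-ZH mice 3.92 to 5.51 FPKM (median 4.69), 4 of 6 above every Normoxia mouse, and *Chac1* rose by 0.52 (SE 0.12, adjusted p = 0.00326). In 14-07w-JFJ it had 3.70 to 6.15 FPKM, with a difference of 0.51 that did not pass (SE 0.14, adjusted p = 0.0808). In 07-06h-ZH the mice split, 3 at or under 1.92 FPKM and 3 at or above 3.11 FPKM, and the difference was -0.37 (95% interval -0.78 to 0.03). *Sesn2* (ENSMUSG00000028893, chr4:132492032-132510501, minus strand), a stress-induced regulator that restrains the growth kinase complex mTORC1, stayed within 6.20 to 9.56 FPKM over all 42 mice. Its differences from normoxia lay between -0.08 and 0.14.

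**Figure D2:**
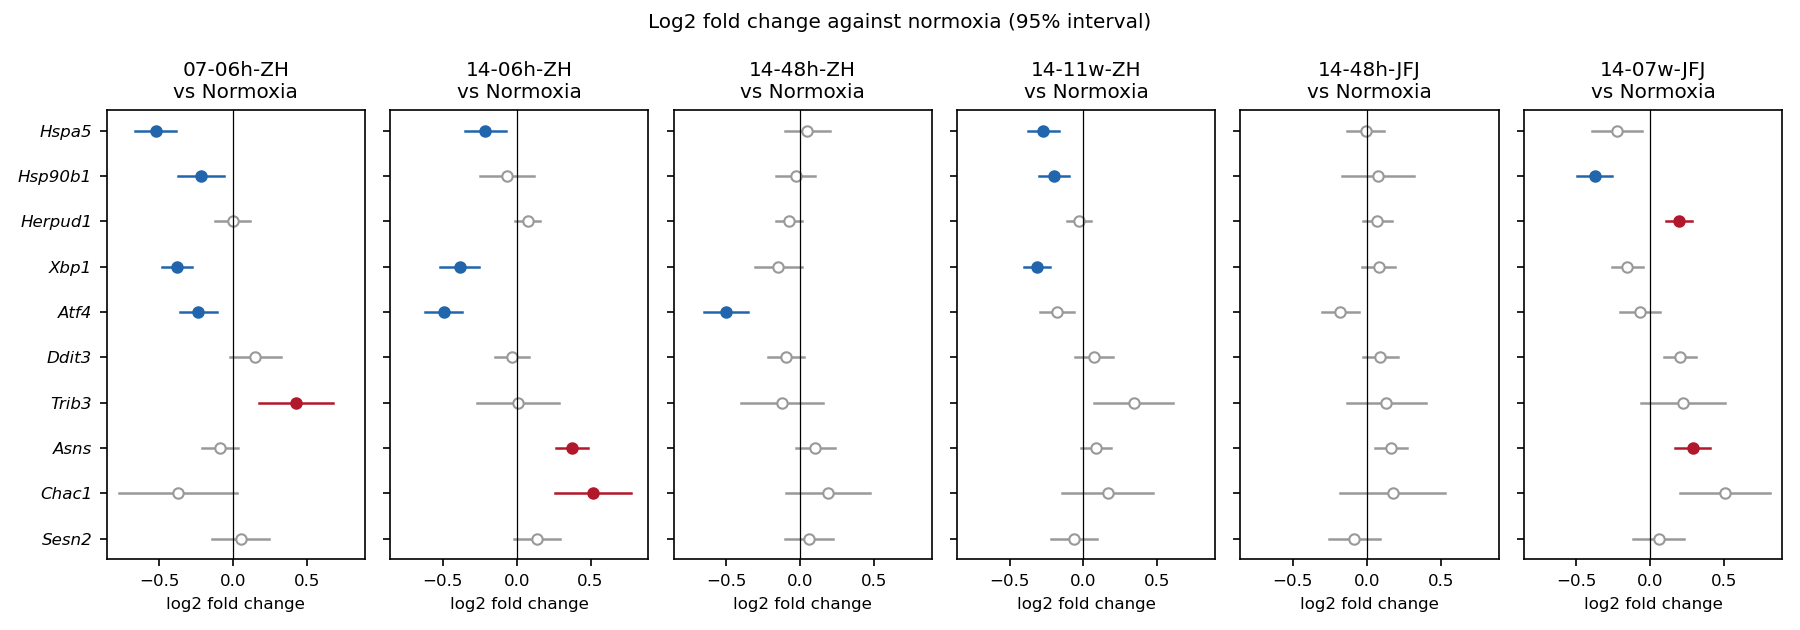
Log2 fold change on the log2(FPKM + 0.1) scale (horizontal axis) of the 10 genes (rows) in each of 6 comparisons with Normoxia, 6 mice against 6. Bars are 95% intervals, filled points passed an adjusted p of 0.05 (red higher, blue lower) and open grey points did not. *Xbp1* is lower in 07-06h-ZH (-0.38), 14-06h-ZH (-0.39) and 14-11w-ZH (-0.32), and *Asns* is higher in 14-06h-ZH (0.38) and 14-07w-JFJ (0.29).

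Summed marker levels of several cell types moved between these groups. The 5 red blood cell markers summed to 87.6 to 1877 FPKM in 07-06h-ZH and 23.4 to 555 FPKM in Normoxia, and the 8 pigment cell markers to 144 to 532 and 13.9 to 467 FPKM, with no marker at 0 throughout either group. The 8 lens markers summed to 34.8 to 27988 FPKM in 14-06h-ZH and 4.68 to 6972 FPKM in Normoxia, and the 7 surface epithelium markers to 12.0 to 32.6 and 4.15 to 8.22 FPKM. In 14-07w-JFJ the pigment cell markers summed to 67.7 to 783 FPKM and the surface epithelium markers to 16.5 to 41.6 FPKM. In 14-48h-ZH the 8 rod markers summed to 50229.5 to 54679.9 FPKM against 42331.5 to 47113.6 in Normoxia, the 7 endothelium markers to 99.5 to 109.6 against 80.2 to 86.7, and the surface epithelium markers to 8.59 to 28.2, all without overlap. The part of these cell types in the results was not tested. Without the lens-rich libraries 5, 4, 1, 1, 0 and 1 of the 10 genes passed in 07-06h-ZH, 14-06h-ZH, 14-48h-ZH, 14-11w-ZH, 14-48h-JFJ and 14-07w-JFJ. That left out 2 of 6 mice in Normoxia and, in the same order, 0, 3, 3, 2, 2 and 1 in the hypoxic groups. Lens content and the smaller number of mice cannot be told apart there.

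At 6 h the groups at 7% and 14% oxygen differed in several of these genes. Between 07-06h-ZH and 14-06h-ZH 5 of 10 genes differed, 2 higher and 3 lower at 7%, where 45.5% of 17048 genes did (25.8% higher, 19.7% lower). *Chac1* was lower at 7% than at 14% oxygen in every mouse (1.75 to 3.68 against 3.92 to 5.51 FPKM), by -0.89 (SE 0.17, adjusted p = 0.000458). *Asns* was likewise lower without overlap (-0.47, SE 0.06, adjusted p = 6.76e-06), as was *Hspa5* (-0.31, SE 0.07, adjusted p = 0.00139). *Atf4* was higher at 7% than at 14% in every mouse (0.26, SE 0.04, adjusted p = 4.76e-05), and *Trib3* was higher with 5 of 6 mice above every 14-06h-ZH mouse (0.42, SE 0.10, adjusted p = 0.00237; 0.26 with adjusted p = 0.084 without the lens-rich libraries). For *Xbp1* the 95% interval of the difference was -0.13 to 0.14. *Atf4* mRNA and the targets *Asns* and *Chac1* thus differed in opposite directions, while the target *Trib3* went with *Atf4*. Of 33 tested targets of ATF4 and CHOP, 8 were higher and 10 lower at 7%. Over the alternatives these numbers were 8 to 9 and 7 to 13. The 2 groups come from different series of codes, which cannot be told apart from the oxygen level.

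From 6 h to 48 h at 14% oxygen, within 1 series of codes, *Asns* declined. It had 50.1 to 60.0 FPKM at 6 h and 37.7 to 50.6 FPKM at 48 h, 5 of 6 mice below every 6 h mouse, and fell by 0.27 (SE 0.06, adjusted p = 0.04), where 1.67% of 17172 genes passed (0.74% higher, 0.932% lower). Without the lens-rich libraries 2 genes were higher and 16 lower, in place of 127 and 160, but that fit left out 3 of 6 mice in each group. The *Asns* call is lost in 5 of 13 alternatives, with adjusted p up to 0.289. *Chac1* (-0.33, adjusted p = 0.157), *Hspa5* (0.26, adjusted p = 0.0924), *Xbp1* (0.24, adjusted p = 0.219) and *Herpud1* (-0.15, adjusted p = 0.0549) had differences that did not pass. *Atf4* had a median of 138 FPKM at 6 h and 139 FPKM at 48 h, and the 95% interval of the difference was -0.11 to 0.10.

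Of the groups at 48 h, 14-48h-JFJ had the higher *Atf4*. It had 163 to 181 FPKM in 14-48h-JFJ and 119 to 152 FPKM in 14-48h-ZH, without overlap, and differed by 0.32 (SE 0.05, adjusted p = 8.11e-05). In all, 4 of 10 genes passed, all higher, where 39.6% of 17099 genes passed (30.9% higher, 8.66% lower). The other 3 were *Xbp1* (0.23, SE 0.08, adjusted p = 0.0392), *Ddit3* (0.19, SE 0.05, adjusted p = 0.00734) and *Herpud1* (0.15, SE 0.04, adjusted p = 0.0146). The median of all genes was itself higher by 0.11 in this comparison. With median-of-ratios scaling, where that median is 0.02 and 3111 rather than 5283 genes are higher and 3113 rather than 1481 lower, *Atf4* still passed and these 3 did not (0.12, 0.08 and 0.04). With this scaling *Sesn2* passed as lower (-0.25, adjusted p = 0.0146). Over the 13 alternatives *Xbp1* lost its call in 8, and *Ddit3* and *Herpud1* lost theirs in 4 each. Cell type markers moved with this comparison. The rod markers summed to 36604.7 to 42962.2 FPKM in 14-48h-JFJ and 50229.5 to 54679.9 in 14-48h-ZH, and the endothelium markers to 80.7 to 93.9 and 99.5 to 109.6, lower at the station without overlap. The 6 cone markers summed to 1298 to 1465 and 967 to 1171 FPKM, higher at the station without overlap, and the pigment cell markers to 42.2 to 773 and 25.3 to 59.3 FPKM. Also higher there without overlap were the microglia markers (41.6 to 49.4 against 34.2 to 39.6). The same held for the smooth muscle and pericyte markers (47.8 to 115.1 against 32.7 to 40.6). The part of these cell types in the result was not tested. The 2 groups also differ in their series of codes, light cycle, transport and isolation of the retina. Compared with 14-11w-ZH, the 14-07w-JFJ mice had higher *Herpud1*, 66.1 to 72.0 against 57.3 to 61.6 FPKM without overlap (0.23, SE 0.04, adjusted p = 0.00686), where 1.54% of 17037 genes passed (1.07% higher, 0.47% lower). With median-of-ratios scaling 147 rather than 183 genes were higher and 144 rather than 80 lower. The *Herpud1* call held in all 13 alternatives. *Hsp90b1* (-0.18, adjusted p = 0.065) and *Asns* (0.20, adjusted p = 0.0627) did not pass. The groups 14-07w-JFJ and 14-11w-ZH also differ in duration (7 and 11 weeks), start age (9 and 9.5 weeks) and series of codes. Y-linked genes were expressed in 3 of 6 and 6 of 6 mice. The pigment cell markers summed to 67.7 to 783 and 9.24 to 89.8 FPKM. Apart from the sex term among the alternatives, the part of these differences was not tested.

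**Figure D3:**
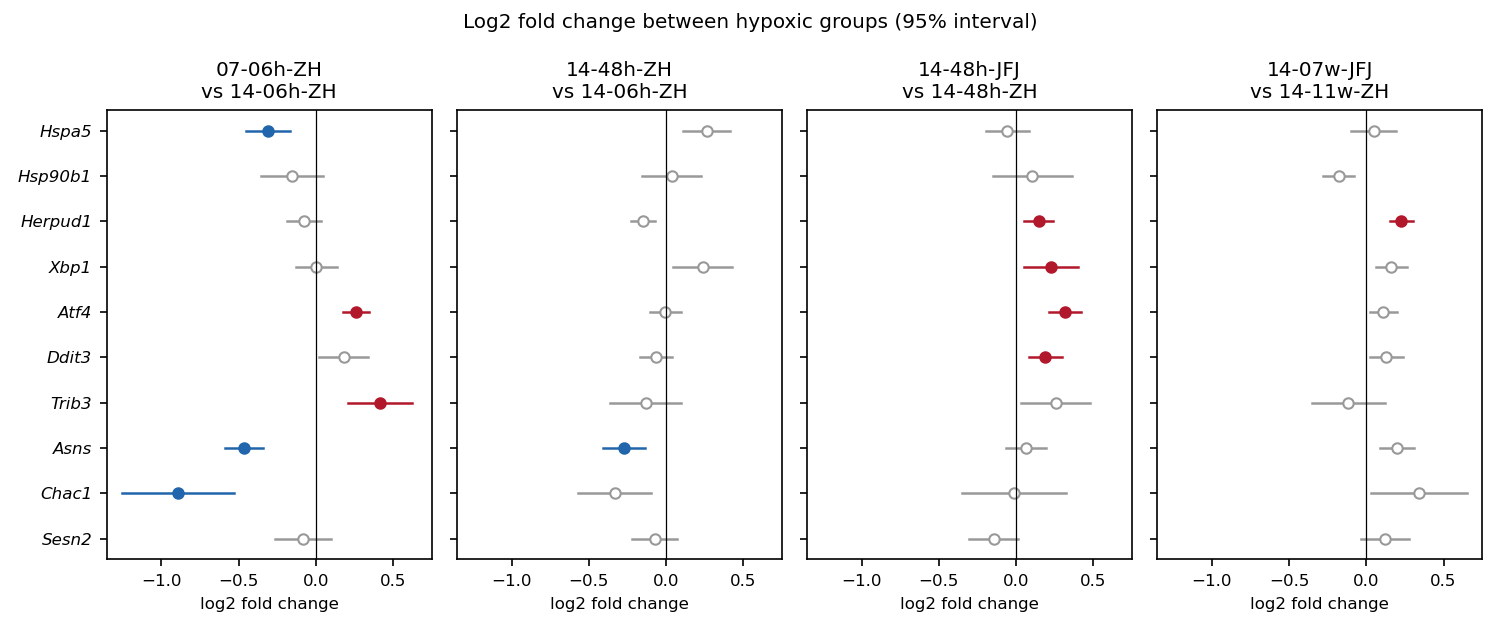
Log2 fold change on the log2(FPKM + 0.1) scale (horizontal axis) of the 10 genes (rows) between hypoxic groups, 6 mice against 6, first group minus second. Bars are 95% intervals, filled points passed an adjusted p of 0.05 (red higher, blue lower) and open grey points did not. In the first panel *Chac1* (-0.89) and *Asns* (-0.47) are lower at 7% than at 14% oxygen while *Atf4* (0.26) and *Trib3* (0.42) are higher.

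The other genes of these pathways were followed in 6 lists, chosen with earlier results of these data known. The lists include the 10 genes where they belong. Of 25 ER chaperones and folding enzymes, 14 fell and 2 rose in 07-06h-ZH (median -0.22, against -0.03 over all genes) and 11 fell and 4 rose in 14-06h-ZH (median -0.12, against -0.05). With median-of-ratios scaling 13 fell and 2 rose in 07-06h-ZH, and 6 fell and 5 rose in 14-06h-ZH. The 2 that rose in 07-06h-ZH were *Ero1l*, the oxidase that drives disulfide formation, from 27.1 to 32.8 FPKM in Normoxia to 90.2 to 115 FPKM (1.73, SE 0.06, adjusted p = 5.06e-12), and *P4hb*, which encodes protein disulfide isomerase and a subunit of the collagen prolyl hydroxylase (0.56, SE 0.04, adjusted p = 2e-08). *Creld2*, a folding factor induced by ER stress, fell by 0.65 (adjusted p = 1.47e-06), and the disulfide isomerase gene *Pdia6* by 0.54 (adjusted p = 5.76e-07). In 14-11w-ZH 7 fell and 0 rose (median -0.08, against 0.01), among them *Calr*, the calcium-binding lectin chaperone calreticulin (-0.27, adjusted p = 0.00872), and *Creld2* (-0.26, adjusted p = 0.0113). Over the alternatives the number that fell in 14-11w-ZH was between 1 and 8, with 1 without the lens-rich libraries. In 14-48h-ZH 8 fell and 6 rose (4 and 9 with median-of-ratios scaling), in 14-48h-JFJ 0 fell and 2 rose, and in 14-07w-JFJ 4 fell and 1 rose. Among all genes tested, 24%, 24.8%, 26.7%, 1.94%, 2.65% and 0.577% were lower in 07-06h-ZH, 14-06h-ZH, 14-48h-ZH, 14-11w-ZH, 14-48h-JFJ and 14-07w-JFJ. In the same order 18%, 9.54%, 9.48%, 2.02%, 2.67% and 1.47% were higher.

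Of 33 tested targets of ATF4 and CHOP, 11 rose and 6 fell in 07-06h-ZH (median 0.02, against -0.03) and 11 rose and 2 fell in 14-06h-ZH (median 0.12, against -0.05). Among all genes tested, 18% were higher and 24% lower in 07-06h-ZH, and 9.54% higher and 24.8% lower in 14-06h-ZH. The alternatives gave 8 to 12 that rose and 4 to 7 that fell in 07-06h-ZH. For 14-06h-ZH they gave 8 to 14 and 1 to 3. *Stc2*, a secreted glycoprotein hormone gene, went from 1.26 to 2.20 FPKM in Normoxia to 5.12 to 7.98 FPKM in 07-06h-ZH (2.02, SE 0.14, adjusted p = 1.36e-08). *Slc7a1*, an arginine and lysine transporter, went from 10.9 to 14.1 to 27.7 to 44.1 FPKM (1.46, SE 0.10, adjusted p = 1.61e-08). *Slc7a5*, the light chain of a transporter of large neutral amino acids, rose in 5 of 6 hypoxic groups, by 0.77, 0.60, 0.29, 0.41 and 0.46 in 07-06h-ZH, 14-06h-ZH, 14-48h-ZH, 14-48h-JFJ and 14-07w-JFJ, and had a difference of 0.15 (adjusted p = 0.0601) in 14-11w-ZH. *Aldh18a1*, an enzyme of proline synthesis, rose in 14-06h-ZH (0.53, adjusted p = 2.31e-06), fell in 07-06h-ZH (-0.33, adjusted p = 0.0176) and fell from 6 h to 48 h (-0.46, adjusted p = 0.000318). In 14-48h-ZH 4 targets rose and 8 fell (6 and 4 with median-of-ratios scaling), in 14-11w-ZH 0 rose and 1 fell (*Ppp1r15a*, the phosphatase subunit GADD34 that resets eIF2), in 14-48h-JFJ 2 rose and 1 fell, and in 14-07w-JFJ 4 rose and 0 fell. The shares over all genes were 9.48% higher and 26.7% lower in 14-48h-ZH, and 2.02% and 1.94% in 14-11w-ZH. At the station they were 2.67% and 2.65% after 48 h, and 1.47% and 0.577% after 7 weeks.

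Of 20 cytosolic aminoacyl-tRNA synthetases, which load amino acids on tRNAs and include ATF4 targets, 10 rose and 2 fell in 14-06h-ZH (median 0.13, against -0.05), and 6 rose and 4 fell in 07-06h-ZH. Over the alternatives those that rose numbered 8 to 12 and 4 to 10. Alanyl-tRNA synthetase (*Aars*, 0.34) and glycyl-tRNA synthetase (*Gars*, 0.29) were among those that rose in 14-06h-ZH. *Mars* rose there (0.21, adjusted p = 0.00417) and fell in 07-06h-ZH (-0.27, adjusted p = 0.00971). Of 24 sensors and parts of the eIF2 machinery, 10 fell and 6 rose in 07-06h-ZH (6 to 11 and 2 to 7 over the alternatives), and the sensor gene *Atf6* fell there (-0.29, adjusted p = 0.000141) and rose in 14-06h-ZH (0.20, adjusted p = 0.00173) and 14-48h-ZH (0.24, adjusted p = 5.37e-05), each without overlap. Its relative *Atf6b* fell in all 3 of these groups (-0.57, -0.33 and -0.24). Of 19 genes of ER-associated degradation 5, 6 and 6 fell and 3, 2 and 4 rose in 07-06h-ZH, 14-06h-ZH and 14-48h-ZH. Of 18 genes of ER translocation and export 7, 8 and 7 fell and 2, 1 and 2 rose there. Over all genes 24%, 24.8% and 26.7% were lower and 18%, 9.54% and 9.48% higher. Over the alternatives the degradation genes that fell numbered 3 to 5, 3 to 7 and 2 to 7, and the translocation and export genes 1 to 7, 4 to 8 and 5 to 7. In the 3 other hypoxic groups 2 or fewer genes of each of these last 4 lists moved in either direction.

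**Figure D4:**
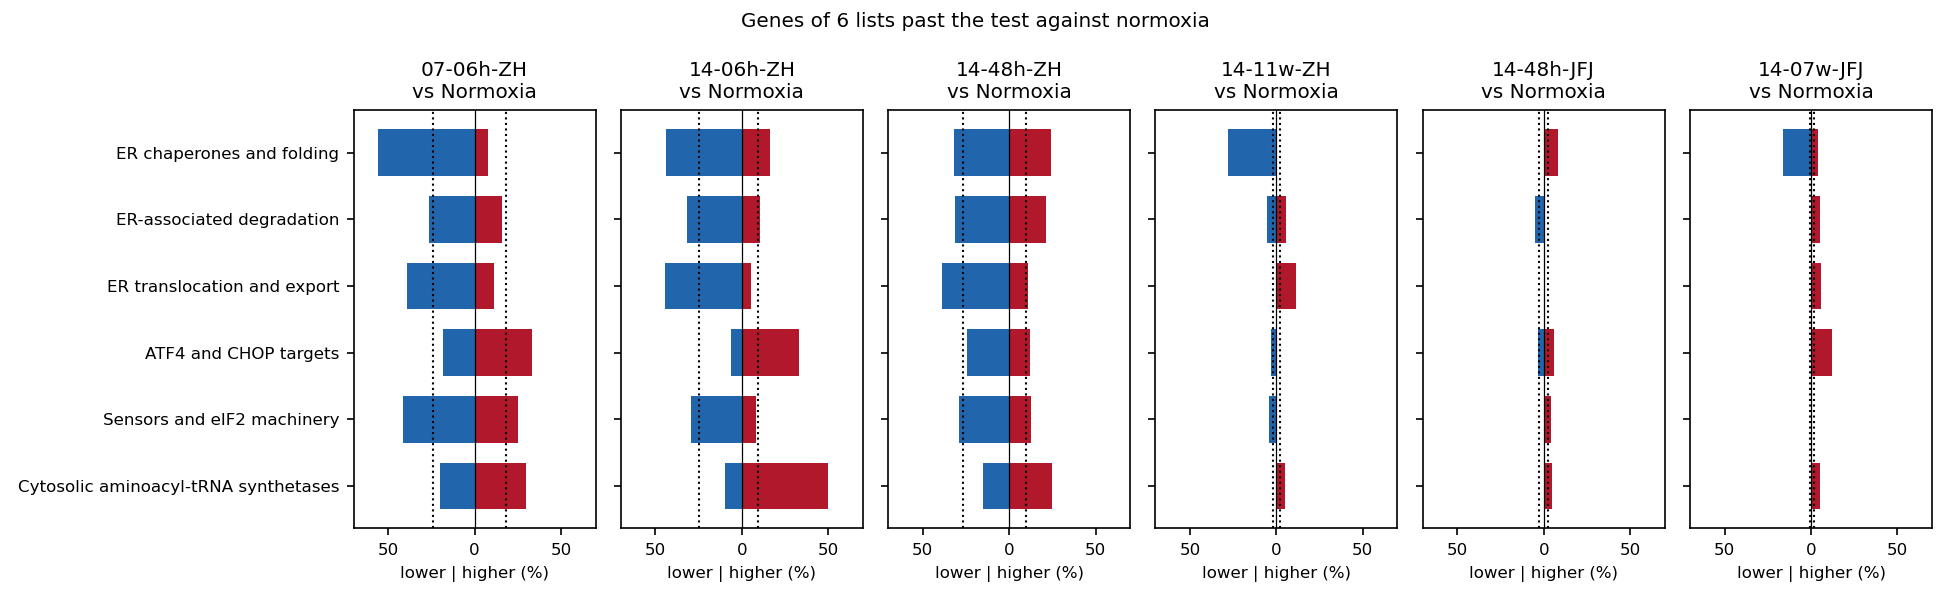
Share of each list's tested genes (percent, horizontal axis, lower to the left in blue and higher to the right in red) that passed an adjusted p of 0.05 in each comparison with Normoxia. Dotted lines give the share of all genes tested that passed in that direction. In 07-06h-ZH 14 of 25 ER chaperones and folding genes were lower where 24% of all genes were, and in 14-06h-ZH 10 of 20 tRNA synthetases were higher where 9.54% of all genes were.

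Within groups, mice with more *Hspa5* had more *Xbp1*. Over deviations of log2(FPKM + 0.1) from the group mean in 42 mice, Pearson's r was 0.68 (2-sided permutation p = 2e-05, adjusted p = 0.0009 over 45 pairs) and Spearman's rho was 0.70 (permutation p = 2e-05, adjusted p = 0.0009). A p of 2e-05 is near, but not at, the smallest that 100000 permutations can give. Without the 2 mice farthest from the median of *Hspa5* r was 0.66. By group r was positive in 6 of 7 and ranged from -0.47 to 0.88. The only other pair that passed was *Sesn2* with *Herpud1* (r = 0.59, permutation p = 0.00054, adjusted p = 0.0121), with rho at 0.50 (permutation p = 0.0024, adjusted p = 0.054), r = 0.53 without the 2 farthest mice and r between 0.16 and 0.94 in the 7 groups. *Atf4* and its targets *Asns*, *Chac1* and *Trib3* gave no pair that passed.

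**Figure D5:**
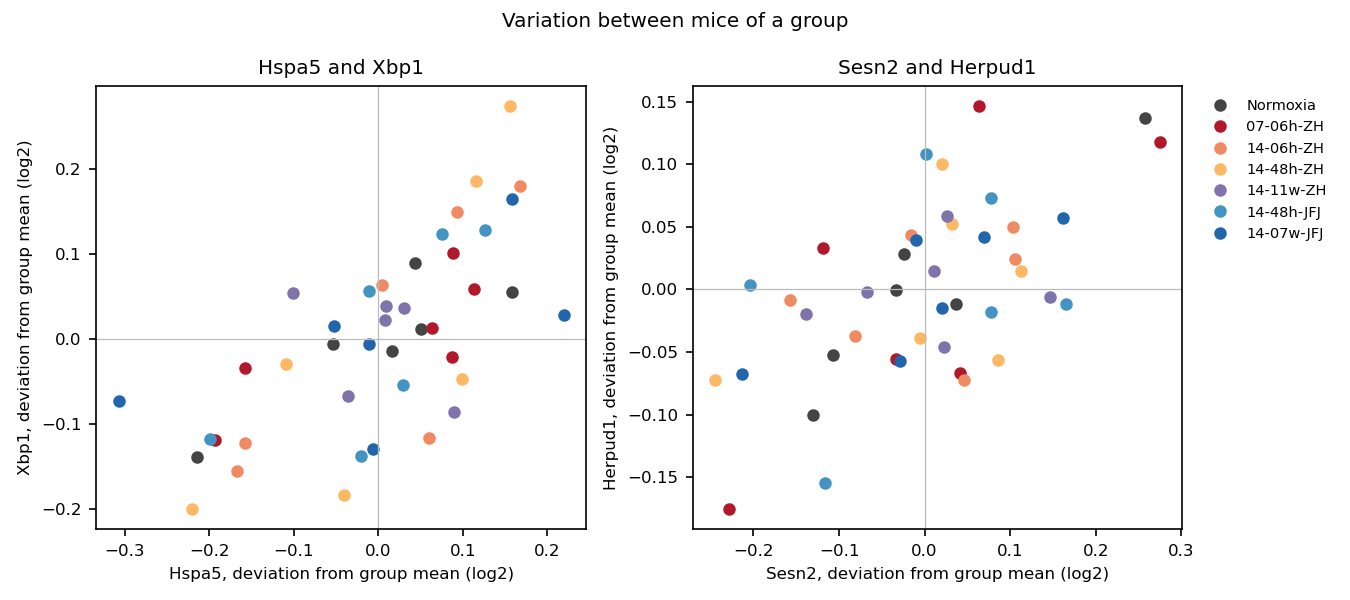
Deviation of each mouse from its group mean of log2(FPKM + 0.1), *Xbp1* against *Hspa5* (left) and *Herpud1* against *Sesn2* (right), with 42 mice coloured by group. Both pairs rise together, with r = 0.68 on the left and r = 0.59 on the right.

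Over the 42 mice and all groups, the genes whose log2(FPKM + 0.1) was most like that of *Hspa5* among 13287 genes with a mean of at least 1 FPKM were *St13* (r = 0.88), *Hspa8* (r = 0.86), *Calr* (r = 0.85), *Hsph1* (r = 0.83) and *Mtmr4* (r = 0.82). *St13*, *Hspa8* and *Hsph1* encode chaperones or cochaperones of the cytosol and *Calr* one of the ER. Those most like *Asns* were *Mars* (r = 0.77), *Yars* (r = 0.74), *Aldh18a1* (r = 0.74), *Crb1* (r = 0.73) and *Macf1* (r = 0.72), the first 2 of which encode tRNA synthetases. Those most like *Ddit3* were *Rps16* (r = 0.76), *Atp5g2* (r = 0.75), *Cox4i1* (r = 0.75), *Eif3g* (r = 0.74) and *H2-D1* (r = 0.73). These mice share group, series and scaling, so the values are a description.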

How the data were processed

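Retinal RNA of 42 mice was sequenced, and the authors aligned the reads with STAR (no version given in the sources used here) to GRCm38. They deposited FPKM per gene, together with a normalized count signal per gene. How FPKM totals and lengths were set is not given in the sources used here. All columns could be assigned to a mouse. In 36 libraries whole reads were recovered from the normalized counts (100% whole within 0.1 steps), and 6 libraries took no part in tests on reads.

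A gene took part in a comparison only if at most 3 mice per group had an FPKM of 0. Pairs of groups were compared with limma 3.58.1 (trend and robust options, R 4.3.3) on log2(FPKM + 0.1), 12 mice at a time, with Benjamini-Hochberg adjustment over all genes tested. Fold changes are on this scale, which understates those of low genes. The study names edgeR, a count test, which was used here (4.0.16) only on the recovered reads, since FPKM are no counts. Alternatives were pseudocounts of 1 and 0.01, no low-value filter, a filter at a mean of 1 FPKM, a fit of all 7 groups together, scaling by the median of ratios, a replicate block, limma without its trend and robust options (plain limma), the normalized counts as deposited, edgeR and a sex term. Leaving out libraries with 1000 FPKM or more of lens markers and a correction for GC content were added after seeing the data. The fit was tested on simulated data. Other steps used Python 3.11.15, numpy 2.4.6, pandas 2.3.3 and scipy 1.17.1. Permutations numbered 100000.

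The members and lists were chosen with earlier results of these data known. Named are all 10 genes, up to 4 other genes of each list with the smallest p in a comparison (up to 2 where none passed), and the 5 genes most like *Hspa5*, *Asns* and *Ddit3*. Of these the text gives a part.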

Additional observations from a re-analysis of the deposited data

Results flagged for a closer look

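In 70 sets of 6 mice (10 genes in 7 groups) 3 held a mouse far from the others, where 1 in 20 sets, or 3.5, would by chance. These were the lowest *Asns* value in 14-48h-JFJ (replicate 5, 41.1 FPKM, next 46.6), the lowest *Sesn2* value in 14-48h-ZH (replicate 1, 6.68 FPKM, next 7.91) and the highest *Hsp90b1* value in 07-06h-ZH (replicate 3, 331 FPKM, next 259.8).

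The hypoxic groups differed from each other in 11 tested values. Between 7% and 14% oxygen at 6 h these were *Hspa5* (-0.31), *Atf4* (0.26), *Trib3* (0.42), *Asns* (-0.47) and *Chac1* (-0.89). From 6 h to 48 h at 14% it was *Asns* (-0.27). Between 14-48h-JFJ and 14-48h-ZH these were *Ddit3* (0.19), *Atf4* (0.32), *Xbp1* (0.23) and *Herpud1* (0.15). Between 14-07w-JFJ and 14-11w-ZH it was *Herpud1* (0.23). Both of these last pairs differ in their series of codes and start age as well as in pressure. The second pair also differs in duration and Y-linked expression. Light cycle, transport and the way the retina was isolated differed in both pairs, and their part was not tested. All 11 values are log2 differences, first group minus second, in limma at an adjusted p of at most 0.05.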

How the results depend on the processing

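Of 28 values of the 10 genes that passed, 15 passed with the same sign under every alternative run, and none changed sign. Of 361 alternative values of these, 309 passed and 52 kept their sign without passing. Another 17 values of the 10 genes that did not pass in the report passed under at least 1 alternative. The number of the 10 genes that passed moved by over 1.5 times from that in the report under the alternatives named next, and by 1.5 times or less under those not named. The cause was not tested. In 07-06h-ZH it was 2 with edgeR on the recovered reads (5 in the report). In 14-48h-ZH it was 2 with median-of-ratios scaling, the deposited normalized counts, edgeR and the GC correction (1 in the report). In 14-11w-ZH it was 1 with plain limma and without the lens-rich libraries (3 in the report). In 14-48h-JFJ it was 1 with the fit of all 7 groups, median-of-ratios scaling and the normalized counts (0 in the report). In 14-07w-JFJ it was 1 with plain limma, edgeR, the sex term and without the lens-rich libraries (3 in the report). From 6 h to 48 h at 14% it was 0 with no filter, the replicate block, plain limma and without the lens-rich libraries, and 2 with the filter at 1 FPKM and the GC correction (1 in the report). Between 14-48h-JFJ and 14-48h-ZH it was 2 with median-of-ratios scaling, the normalized counts and the GC correction (4 in the report). Between 14-07w-JFJ and 14-11w-ZH it was 2 with median-of-ratios scaling, the normalized counts, edgeR, the sex term and the GC correction (1 in the report). With the sex term, 2 values that had not passed changed sign: Asns, 14-48h-ZH vs Normoxia (0.10 to -0.0048) and Sesn2, 14-48h-ZH vs Normoxia (0.06 to -0.015). The sex term could not be fitted for 14-11w-ZH against Normoxia.

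Replicate numbers are shared by the groups, but in none of the 10 comparisons did all 6 same-numbered pairs correlate above 0.1 (1 to 4 of 6 did), so the numbers do not pair mice. With the replicate block 5, 5, 1, 3, 0 and 4 of the 10 genes passed against Normoxia in 07-06h-ZH, 14-06h-ZH, 14-48h-ZH, 14-11w-ZH, 14-48h-JFJ and 14-07w-JFJ. Counts over all genes moved most where few passed: those higher and lower in 14-11w-ZH were 345 and 331, and ranged from 5 to 458 and from 30 to 534. The same ranges were 83 to 672 and 93 to 850 in 14-48h-JFJ (457 and 454), 61 to 633 and 19 to 241 in 14-07w-JFJ (249 and 98), 896 to 2747 and 2190 to 4261 in 14-06h-ZH (1632 and 4240), and 953 to 2863 and 2573 to 4561 in 14-48h-ZH (1615 and 4553). From 6 h to 48 h at 14% they were 2 to 213 and 16 to 181 (127 and 160), with 2 and 16 without the lens-rich libraries. Between 14-07w-JFJ and 14-11w-ZH they were 40 to 380 and 11 to 188 (183 and 80), and between 14-48h-JFJ and 14-48h-ZH 2967 to 5343 and 915 to 3113 (5283 and 1481).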
